A study of Mus musculus with 8 samples.

Results

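The difference of induction between 2 lines of C10 cells was measured per gene as the log2 change over 24 h in the line labelled Tet2 knockdown minus the same change in the control line. All 8 arrays of the series entered it, as 4 groups of 2. C10 is derived from HAFTL, an established mouse pre-B cell line. It carries C/EBPα, a transcription factor, in an inducible form, and on induction the cells take on macrophage features. The groups were cells with a control shRNA at 0 h and at 24 h and cells with an shRNA against Tet2 at the same times. All 4 groups grew in puromycin and carried the inducible C/EBPα, and the 24 h groups received estradiol (100 nM) with IL-3 and M-CSF (each 10 ng/ml). There was 1 line per shRNA, and the series design calls the arrays of a group technical duplicates. Each p-value thus rests on how far duplicate arrays differ, cultures were not compared, and a second line with the same shRNA was not analysed here.

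A difference of induction is the line difference at 24 h minus the line difference at 0 h. A gene can therefore differ in its induction because the lines already differed before induction and then met, because they were alike and then parted, or because of both. It can also differ because a line difference kept its direction and grew or shrank. C/EBPα is a master factor of the granulocyte and macrophage lineage, and its activation in pre-B cells silences B cell genes while it switches on phagocyte genes. Tet2 oxidises 5-methylcytosine in DNA, a step towards demethylation. The interferon response, which recurs below, starts from sensors of foreign RNA or DNA, runs through transcription factors that include STAT2 and IRF9, and ends in antiviral effector genes that share the interferon stimulated response element in their promoters.

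The library labels were checked first. Levels are log2 values relative to each array's 75th percentile, so 0 is the level of a fairly bright probe and about -5 is the limit of measurement. The Tet2 transcript stood at -1.23 and -1.36 in control cells at 0 h and at -1.51 and -1.30 in the line labelled knockdown. At 24 h it stood at -0.03 and 0.01 in control cells and at -0.07 and 0.06 in the other line. The groups overlapped at both times, and the difference of induction of Tet2 was 0.11 ± 0.14 (SE of the fit, adjusted p = 0.64). These values are of the brightest kept Tet2 probe alone. Another kept probe, measured on all 8 arrays, had a difference of 0.44, and a probe measured on 4 arrays had 0.83. Line levels on those probes are not given here. On the brightest probe the transcript does not bear out the label, and the wording "line labelled knockdown" is kept throughout. Of 9 pre-B markers and 7 macrophage markers, all were measured on every array. Their summed level (percent of the 75th percentile) for macrophage markers was 603 to 645 in control cells and 558 to 600 in the other line at 0 h, and at 24 h the lines overlapped (95702 to 104196). The pre-B sum at 24 h was 25816 to 28548 in control cells and 35595 to 37578 in the line labelled knockdown, while at 0 h the lines overlapped. In such bulk samples, fewer cells of a type and less RNA per cell cannot be told apart. Between 47.4% and 55.6% of spots per array were well above background, and the 24 h arrays of the line labelled knockdown had the lowest 75th percentiles (722 and 896 intensity units, against 1011 to 1435). Whether brightness had a part in the results was not tested beyond the other scalings given below.

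The difference of induction was called for 617 of 16153 genes tested (3.82%), at an adjusted p under 0.05 and at least 2-fold. In 381 genes (2.36%) the change was higher in the line labelled knockdown, which means a larger rise or a smaller fall, and in 236 genes (1.46%) it was lower. The median over all genes was 0.05. All 617 genes kept their sign in each of the 16 choices of 1 array per group. The calls rest on the spread of these same arrays, so this gives them no further support. The induction itself was called for 4408 genes in control cells (27.3%; 14.2% rose and 13.1% fell) and for 5194 in the line labelled knockdown (32.2%; 16.7% and 15.4%). Among the 381 higher genes, 160 rose in both lines, 100 rose in the line labelled knockdown only, 59 fell in control cells only, 14 fell in both and 7 moved in opposite directions. Among the 236 lower genes, 89 fell in the line labelled knockdown only, 57 rose in both, 34 rose in control cells only, 26 fell in both and 1 moved in opposite directions. The remaining 41 and 29 genes passed the test in neither induction.

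The 617 genes were then separated by where the difference arose. A gene was assigned to 0 h where the 24 h line difference made up less than 25% of the difference of induction, to 24 h where the 0 h line difference made up less than 25%, and to both otherwise. The share carried its sign. A line difference with the same direction at both times was therefore assigned to the time at which it was larger. These rules gave 141 genes from 0 h (22.9%), 181 from 24 h (29.3%) and 295 from both (47.8%). Of the higher genes, 126 came from 0 h, 101 from 24 h and 154 from both, and of the lower genes 15 came from 0 h, 80 from 24 h and 141 from both. The line difference had the same direction at both times in 54 of the 126 and 30 of the 101 higher genes. Among the lower genes it did so in 4 of the 15 and 31 of the 80, and among those from both in 0. In the typical higher gene from 0 h the line labelled knockdown started 1.48 log2 units below control and ended level with it (median line differences -1.48 and 0.05). The median higher gene from 24 h was the reverse case, with -0.16 at 0 h and 1.39 at 24 h. In the median gene from both, the 2 parts were -0.64 and 0.72 for the higher genes and 0.61 and -0.84 for the lower ones. The line difference itself was called for 279 genes at 0 h (1.73%), of which 54 (0.334%) were higher and 225 (1.39%) lower in the line labelled knockdown. At 24 h it was called for 329 genes (2.04%), 168 higher (1.04%) and 161 lower (0.997%). By those calls, 137 of the 617 genes differed at 0 h only, 203 at 24 h only, 16 at both and 261 at neither, so many genes assigned to both rest on a pair of differences that were each below the calling limits. The origin is a description of how the difference divides, and no test was made of it.

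**Figure D1:**
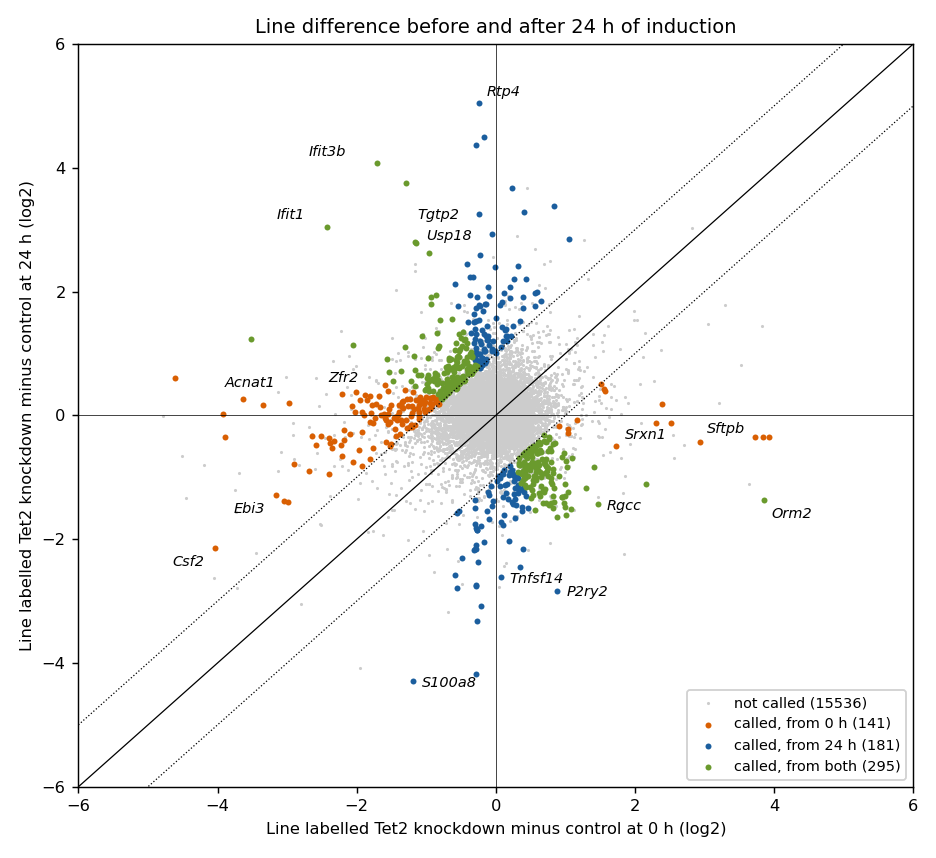
Line difference at 0 h (x axis) against line difference at 24 h (y axis), log2, for all 16153 genes, with the 617 called genes coloured by origin. Genes on the solid diagonal have the same difference at both times and so no difference of induction, the dotted lines mark a 2-fold difference of induction, and the interferon-induced genes Rtp4, Ifit3b and Ifit1 lie farthest above the diagonal.

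Not every group was bright enough to be measured. Of the 617 called genes, 435 had no group in which both arrays lay below the background limit, and 182 had 1 to 3 such groups (71, 75 and 36 genes). A difference with such a group is a fitted value, and a lower bound could be given for 66 of the 182 genes. The bound reached the 2-fold calling limit in 38 of them, and 116 genes had no bound. The 13611 genes measured on all 8 arrays included 259 of the higher and 105 of the lower genes (2.67% of them). The origins also depended on the background correction. With the normexp correction and quantile normalization, which draw dim values together, 45 genes came from 0 h, 124 from 24 h and 119 from both. Genes called the same way in the main scaling and in 3 other scalings numbered 76 higher and 52 lower, of which 64 and 44 also kept their origin in all 4. These 76 and 52 included 27 of the 101 higher and 22 of the 80 lower genes from 24 h.

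**Figure D2:**
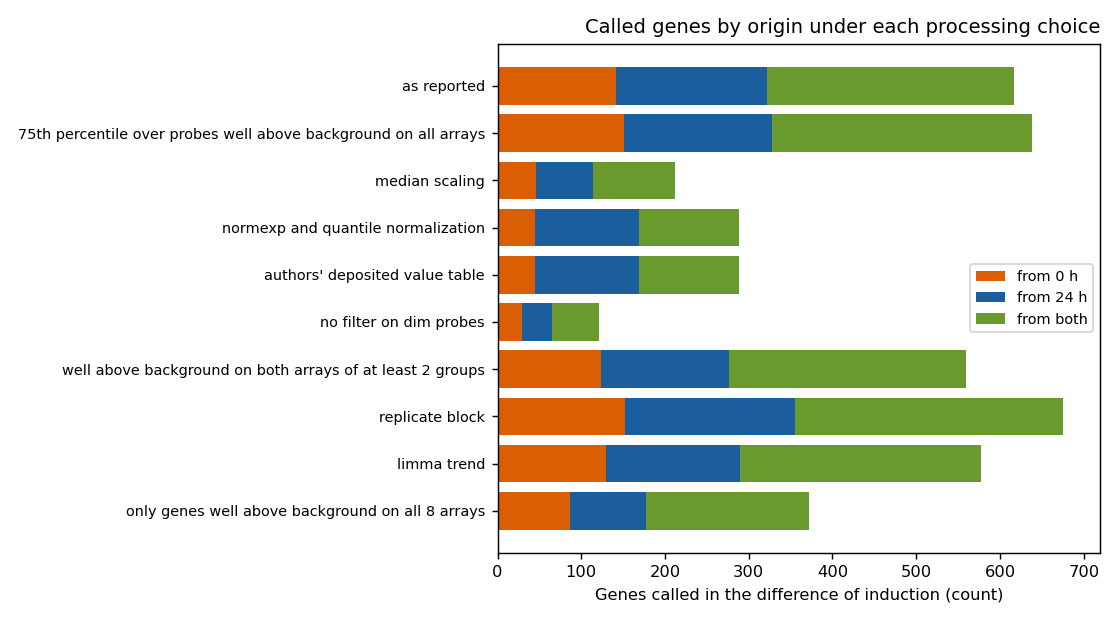
Number of genes called in the difference of induction (x axis, count) under each processing choice, divided by origin. The count was 617 as reported, 212 with scaling to the array median and 288 with the authors' deposited values, and the genes from 0 h shrank from 141 to 46 and 45.

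The interferon-stimulated antiviral effectors had the largest median difference of induction among the gene lists. Of 32 such genes tested, 22 had a higher change in the line labelled knockdown and 0 a lower one, and the value was above 0 in each of these 32. The median was 1.96, against 0.05 for all genes. Beside the counts of this list and those below, 2.36% of all genes tested had a higher and 1.46% a lower change. The list held 37 genes, and some of the 32 passed the background filter only through a group in which they were high. Of the 27 that were well above background in at least 2 groups, 18 were called and the median was 1.58, and of the 21 measured on all 8 arrays, 12 were called and the median was 1.06. The median line difference was -0.23 at 0 h and 1.77 at 24 h, and 15 of the 22 called genes came from 24 h, 7 from both and 0 from 0 h. By the induction tests, 16 of the 32 rose in control cells and 27 rose in the line labelled knockdown, with a median change of 1.07 and 3.06. Over the scalings tried, 17 to 22 members were called higher and 15 of them in all 4 scalings, and the list's median relative to that of all genes lay between 1.36 and 1.92.

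Rtp4, an interferon-induced chaperone of receptors with antiviral activity, showed the largest line difference among these genes at 24 h. Its level was -7.21 on both control arrays at 0 h, -4.53 and -4.43 in control cells at 24 h, -7.09 and -7.81 in the other line at 0 h, and 0.54 and 0.59 at 24 h. The lines overlapped at 0 h, where all arrays were below the background limit. They lay far apart at 24 h, where the line labelled knockdown was a fitted 32.9-fold higher. Of the 2 control arrays at 24 h, 1 was well above background. The fitted difference of induction was 5.28 ± 0.32 (adjusted p = 0.0024). Mx1, a dynamin-like GTPase that blocks influenza viruses, had the same form. It was well above background only in the line labelled knockdown at 24 h (-1.20 and -1.07), where it was at least 11.6-fold higher than in control cells, and the fitted difference was 4.64 ± 0.34 (adjusted p = 0.0036).

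Genes that were measured in all 4 groups showed how the difference arose without a limit of detection. Usp18, a protease that removes ISG15 from proteins and restrains the interferon receptor, was at -4.41 and -4.55 in control cells at 0 h and at -4.70 and -4.38 in the line labelled knockdown. After induction it was at -0.49 and -0.60 in control cells and at 2.38 and 2.37 in the line labelled knockdown. The lines overlapped before induction and were 7.61-fold apart after it, giving a difference of induction of 2.99 ± 0.17 (adjusted p = 0.0022). Isg15, the ubiquitin-like modifier itself, went from 1.73 and 1.71 to 3.05 and 2.90 in control cells and from 1.43 and 1.26 to 5.26 and 5.18 in the line labelled knockdown. Its difference of induction was 2.62 ± 0.12 (adjusted p = 0.0015). Both genes rose in both lines, and at 24 h the 2 arrays of the line labelled knockdown lay above both control arrays.

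The Ifit genes, whose proteins bind viral RNA that lacks the host's cap marks, differed in origin: Ifit1, Ifit3 and Ifit3b came from both times and Ifit2 and Ifit1bl1 from 24 h. Ifit1 was at -2.77 and -2.80 in control cells at 0 h and at -5.04 and -5.37 in the line labelled knockdown, where 1 of the 2 arrays was well above background. At 24 h the order had turned, with -4.09 and -4.12 in control cells and -1.0 and -1.11 in the line labelled knockdown. Ifit1 thus fell by 1.32 in one line and rose by 4.15 in the other, and the difference of induction was 5.47 ± 0.16 (adjusted p = 7.6e-04). Ifit3 was also lower at 0 h (-1.30) and higher at 24 h (3.76), with a difference of 5.05 ± 0.19 (adjusted p = 0.0013). For Ifit3b the bound on the difference was at least 31.6-fold, and for Ifit1bl1 at least 5.46-fold. Ifit3 and Ifit3b are near-identical copies, so their probes may read each other's transcripts. In all, 5 Ifit genes with a higher change lay within mm9 chr19:34650244-34723855, and Ifit2 (2.40 ± 0.13) fell in control cells and hardly moved in the line labelled knockdown.

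**Figure D3:**
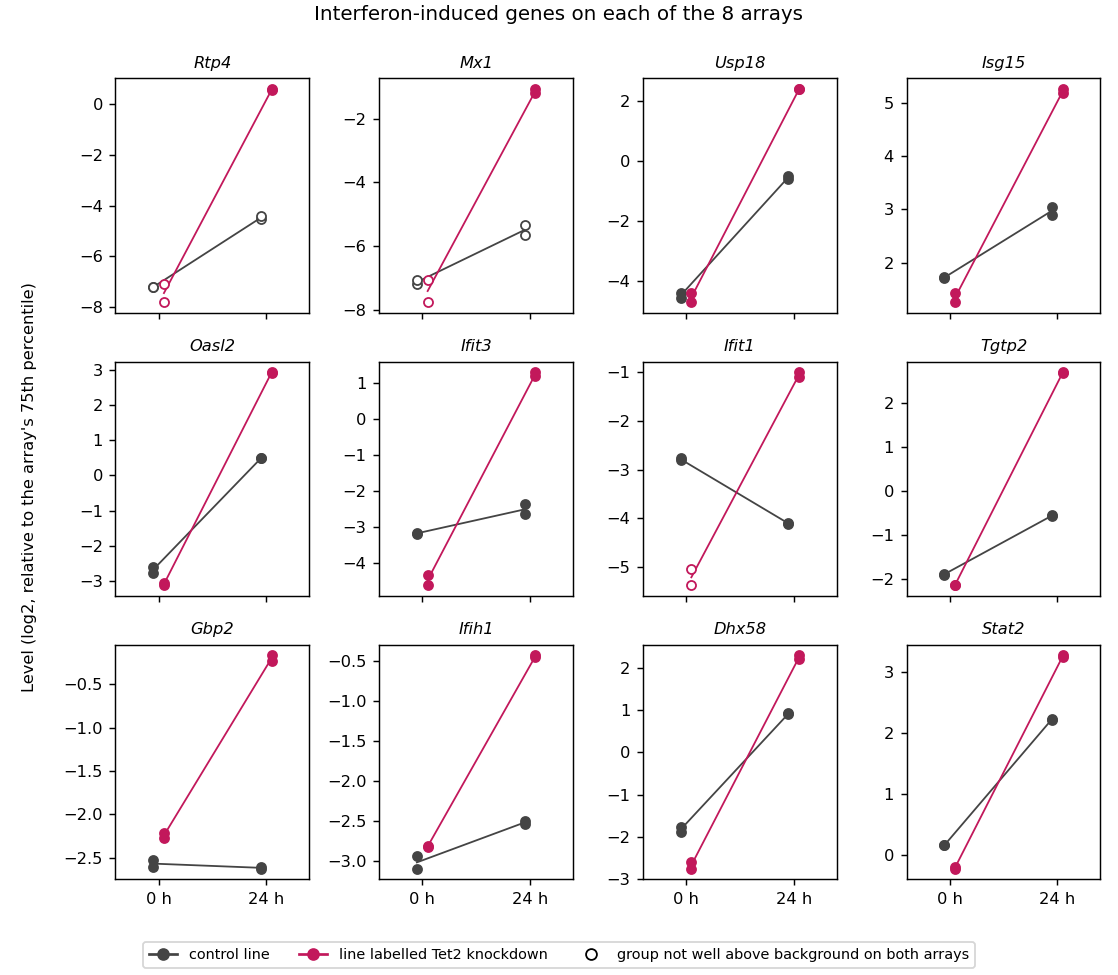
Levels of 12 interferon-induced genes at 0 h and 24 h (y axes, log2 relative to the array's 75th percentile, each panel with its own scale), 1 point per array with lines through the means of the 2 arrays. Open points mark groups that were not well above background on both arrays, and in all 12 panels the line labelled knockdown lies above control at 24 h.

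The response element of these genes was looked for in RefSeq promoters (GRCm38.p6, 250 bases before to 50 after each start), as GAAA, any 2 bases and GAAA, on either strand. It was present in 11 of the 22 antiviral effector genes with a promoter in the table (50%) and in 370 of 9743 tested genes with one (3.8%). Among genes with a higher change it was present in 17 of 68 from 24 h (25%), 9 of 93 from both (9.68%) and 2 of 92 from 0 h (2.17%). Among genes with a lower change it was present in 6 of 83 (7.23%), of which 5 were among the 37 from 24 h (13.5%). A gene can have several promoters in the table, and it was counted where any of them held the letters. Matches of this motif overlapped a STAT site (TTCNNNGAA) in 12 genes and overlapped none of the 4 other motifs searched. The windows below lie upstream of the start on the gene's strand and show the matches of 6 called genes in capitals, because they show the element in several gene families of the interferon response; they were chosen after the values were seen, and Oas3 was measured only in the line labelled knockdown at 24 h.
Ifit3: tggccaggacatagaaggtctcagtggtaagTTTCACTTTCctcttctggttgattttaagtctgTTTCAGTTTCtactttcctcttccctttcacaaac
Ifit1: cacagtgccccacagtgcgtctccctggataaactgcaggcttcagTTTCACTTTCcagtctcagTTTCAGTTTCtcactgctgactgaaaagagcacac
Isg15: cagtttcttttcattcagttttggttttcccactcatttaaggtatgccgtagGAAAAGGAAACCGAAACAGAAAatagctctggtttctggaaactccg
Oas3: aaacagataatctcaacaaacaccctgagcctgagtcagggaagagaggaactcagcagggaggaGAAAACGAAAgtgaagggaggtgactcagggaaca
Gbp2: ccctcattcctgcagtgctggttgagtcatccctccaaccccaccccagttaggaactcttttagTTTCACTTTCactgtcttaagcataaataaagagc
Tgtp2: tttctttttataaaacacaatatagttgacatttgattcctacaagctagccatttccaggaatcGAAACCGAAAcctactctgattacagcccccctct
The windows are chr19:34583342-34583441 (plus strand) for Ifit3, chr19:34640739-34640838 (plus) for Ifit1, chr4:156200850-156200949 (minus) for Isg15, chr5:120777700-120777799 (minus) for Oas3, chr3:142620539-142620638 (plus) for Gbp2 and chr11:49064248-49064347 (minus) for Tgtp2. Ifit3 and Ifit1 each held 2 separate matches and Isg15 held 3 overlapping ones. The window of Ifit3b had the same letters as that of Ifit3. A match describes the letters and is not evidence that a factor was bound there.

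The interferon-inducible GTPases and p200 proteins, which attack the vacuoles of intracellular pathogens or sense DNA, held 4 higher and 0 lower calls among 16 genes, all from 24 h. Their median difference was 0.80. Tgtp2, an immunity-related GTPase that was not on that list, was at -1.91 and -1.88 in control cells and at -2.15 and -2.13 in the line labelled knockdown before induction. After induction it was at -0.55 and -0.58 in control cells and at 2.70 and 2.69 in the line labelled knockdown, which is 9.55-fold higher. Its difference of induction was 3.50 ± 0.07 (adjusted p = 3.1e-04). Of the list's 4 calls, Gbp2, a guanylate-binding protein, stayed near -2.57 to -2.62 in control cells (mean of 2 arrays at each time) and rose by 2.05 in the line labelled knockdown, with a difference of 2.09 ± 0.09. Gbp5 (2.03 ± 0.19), Irgm2 (1.39 ± 0.12) and the DNA-binding p200 protein Ifi204 (1.36 ± 0.20) were the others. Irgm2 and Ifi204 were not called with scaling to the array median, and Ifi204 was also lost without any single 24 h array.

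Among 27 genes of interferon sensing and signalling, 6 had a higher change and 0 a lower one, and the median was 0.36. The RNA sensors were among the 6: Ifih1, which encodes MDA5, had a difference of 1.88 ± 0.10 from 24 h. Dhx58, which encodes LGP2, and Ddx58, which encodes RIG-I, had 2.18 ± 0.11 and 1.57 ± 0.08, each from both times. The transcription factor subunit Stat2 had 1.39 ± 0.07, and its partner Irf9 had 1.12 ± 0.12. Irf7, which amplifies interferon production, had a fitted value of 3.58 ± 0.22 but was not well above background in either line at 0 h, and it is named here after its values were seen. Ddx58, Stat2 and Irf9 were not called with scaling to the array median. Ifnar1, a chain of the type I interferon receptor, had a difference of -0.17 ± 0.09 (adjusted p = 0.23).

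Antigen presentation genes moved by smaller amounts. Of 18 genes of MHC class I presentation and the immunoproteasome, 1 was called higher, the peptide transporter Tap1 (1.05 ± 0.10), and the median was 0.37. Of 10 MHC class II genes 3 were called higher, with a median of 0.76. H2-Eb1, a class II beta chain, came from both times (1.56 ± 0.12), whereas the peptide-loading modulator H2-Oa (1.31 ± 0.17) and the invariant chain Cd74 (1.10 ± 0.24) came from 0 h. Cd74 was at -1.41 and -1.17 in control cells and at -2.95 and -3.23 in the other line at 0 h, and at 24 h it was at 6.34 and 6.06 against 5.64 and 5.36. The line labelled knockdown was lower at both times, and its larger rise came from the lower start. Tap1 and Cd74 were not called with scaling to the array median or with the authors' values. Cd74 lost its call in 12 alternatives, among them the leaving out of any single array, and Tap1 in 6. Both tallies count normexp and the authors' values separately, although these correlated with r = 1 on each array. H2-Oa was not called with scaling to the array median or with no filter on dim probes.

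Differences that arose at 0 h included those of some chemokines and cytokines. Of 20 such genes, 4 had a higher change, all from 0 h, and 2 had a lower change, both from 24 h. With normexp or the authors' values the balance turned, to 1 higher and 4 lower. The median line difference was -0.64 at 0 h and -0.60 at 24 h, and the median difference of induction of 0.38 ranged from -0.15 to 0.41 over the scalings, so its sign was not fixed. Ebi3, a subunit of interleukin-27 and interleukin-35, was at -1.38 and -1.42 in control cells at 0 h and at -4.65 and -4.46 in the line labelled knockdown. After 24 h it was at 1.96 and 1.92 in control cells and at 0.62 and 0.68 in the line labelled knockdown. The line labelled knockdown was thus 8.89-fold lower before induction and 2.44-fold lower after it, and the difference of induction was 1.87 ± 0.11 (adjusted p = 0.0023). With the authors' values that difference was not called.

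Csf2, which encodes the growth factor GM-CSF, showed the limit of such values. It was at -3.25 and -3.41 in control cells at 0 h but below the background limit in the line labelled knockdown, and at 24 h it was at -0.02 and -0.08 against -2.14 and -2.24. The line labelled knockdown was lower at both times, by at least 4.55-fold at 0 h and by 4.40-fold at 24 h. The fitted difference of 1.89 ± 0.29 had a bound of only 1.03-fold, and it turned to -0.65 with the normexp correction, so the direction of its induction difference was not settled. The inflammatory chemokine Ccl3 was measured throughout, at 0.63 and 0.68 in control cells and -1.31 and -1.23 in the line labelled knockdown at 0 h. Its 24 h levels were 3.46 and 3.62 against 3.19 and 3.35, and the difference was 1.66 ± 0.12 (adjusted p = 0.0037). Its neighbour Ccl4 had 1.84 ± 0.33, but the call was lost in 10 alternatives, with a lowest value of 0.79. In both genes the lines lay apart at 0 h, and at 24 h their distance was below the calling limits.

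Other genes with a higher change from 0 h had different roles. The histone gene H3c15 (2.31 ± 0.18), the zinc finger gene Zfr2 (2.54 ± 0.10), the sulfotransferase Sult1a1 (3.16 ± 0.43) and the acyltransferase Acnat1 (3.89 ± 0.35) each started lower in the line labelled knockdown and ended with a line difference below the calling limits. Acnat1 was well above background only in control cells at 0 h, and its value is a fitted one. Syce3, a meiotic protein, was likewise measured only there (3.54 ± 0.76), and its 2 slides gave 1.98 and 5.11. The lactate exporter Slc16a3 (2.10 ± 0.20) was the 1 called gene among 27 of glycolysis and hypoxia, close to the 3.82% called over all genes. The list's median was 0.40. At an unadjusted p under 0.05, 15 of the 27 had a value above 0 (55.6%) and 3 below (11.1%). Over all genes these shares were 18.4% and 14.96%. Slc16a3 was not called with normexp, the authors' values or no filter on dim probes, and its lowest value over the processing choices was 0.79. Granule lysozymes Lyz1 (1.19 ± 0.29) and Lyz2 (1.05 ± 0.10) also started lower in the line labelled knockdown and ended level. Neither was called with scaling to the median or with the authors' values, and their calls were lost in 11 and 6 alternatives.

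Genes with a lower change came mainly from 24 h or from both times, and myeloid genes were among them. Of 34 myeloid surface receptors, 5 had a lower change, 4 of them from 24 h, and 4 had a higher change, 3 of them from 0 h. Over all genes, 1.46% had a lower and 2.36% a higher change. The list's median was -0.15. Lilrb4a, which carries an inhibitory signal into myeloid cells, was below the background limit in both lines at 0 h. At 24 h it was at 4.17 and 4.04 in control cells and at 2.07 and 1.95 in the line labelled knockdown, which is 4.26-fold lower, and the fitted difference was -1.80 ± 0.26 (adjusted p = 0.015). Clec4d, a C-type lectin that recognises mycobacterial and fungal glycolipids, was 6.88-fold lower at 24 h (1.81 and 1.84 against -1.08 and -0.83). The scavenger receptor Msr1 (-1.57 ± 0.26) and the lectin Clec4e (-1.53, named after its values were seen) were lower too. The number of lower calls in this list fell to 0 without Control 0 h replicate 1, Control 24 h replicate 1 or 2 or knockdown-labelled 24 h replicate 2, to 1 without replicate 1 of that last group, and to 0 with no filter on dim probes. Lilrb4a, Clec4d and Msr1 lost their calls in 5, 7 and 8 alternatives and kept their direction. Both lines switched these genes on, and at 24 h both arrays of the line labelled knockdown lay below both control arrays. Fcgr1, an IgG receptor that is also interferon-induced, had a higher change from 24 h (1.36), and Tyrobp, a signalling adaptor, a higher change from 0 h (1.24); both are named after their values were seen.

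P2ry2, a receptor for extracellular ATP and UTP, had the second lowest value among the called genes that the naming rule admits. It was below the background limit in both lines at 0 h, and at 24 h it stood at 1.14 and 1.20 in control cells and at -1.79 and -1.53 in the line labelled knockdown, which is 7.11-fold lower. The fitted difference was -3.72 ± 0.32 (adjusted p = 0.0052). S100a8, a subunit of calprotectin, was at 2.26 and 2.30 in control cells at 24 h and at -1.97 and -2.06 in the line labelled knockdown, or 19.7-fold lower, with a difference of -3.11 ± 0.55 (adjusted p = 0.021). Tnfsf14, the TNF family ligand LIGHT, was 6.13-fold lower at 24 h (-2.69 ± 0.12), and Ltb4r1, the high-affinity leukotriene B4 receptor, was 5.48-fold lower, with a bound on its difference of at least 4.88-fold. The monocyte-attracting chemokine Ccl7 was 4.45-fold lower at 24 h (-1.87 ± 0.27). S100a8, Ltb4r1 and Ccl7 lost the call when any single 24 h array was left out and with no filter on dim probes. S100a8 and Ltb4r1 also lost it without either 0 h array of the line labelled knockdown, and Ccl7 without Control 0 h replicate 1. All of them kept their direction.

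In the lower genes from both times, the line labelled knockdown started higher and ended lower, which follows from how this origin is defined. Bhlhe40, a transcription factor of activated macrophages, was at -3.38 and -3.31 in control cells at 0 h and at -2.28 and -2.41 in the line labelled knockdown. At 24 h it was at 0.34 and 0.27 in control cells and at -1.16 and -1.20 in the line labelled knockdown. The order turned between the times, and the difference was -2.49 ± 0.10 (adjusted p = 0.0013). Rgcc, a regulator of the cell cycle, had the same form (a fitted -2.91 ± 0.12, since control cells at 0 h were not well above background), as did Slc7a11, the cystine transporter that feeds glutathione synthesis (-2.47 ± 0.33, at least 4.41-fold). Orm2, an acute phase glycoprotein, had the lowest value (-5.21 ± 1.23, adjusted p = 0.044), but its control arrays at 0 h were at -4.96 and -7.19, and the call was lost in most choices that left out an array. Other myeloid transcription factors with a call included Fosl2 (-1.12 ± 0.13), Klf2 (1.59 ± 0.10) and Batf3 (1.51 ± 0.12). Not every lower call of this list is named. The 30 tested had 2 higher and 4 lower calls with a median of 0.01, whose sign changed with the scaling. With scaling to the array median 1 higher and 1 lower call were left, and with normexp or the authors' values 2 and 1. Fosl2 was not called in any of these, and Batf3 was not called with scaling to the array median.

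Lower genes from 0 h were few. Srxn1, a sulfiredoxin of the NRF2 programme that repairs oxidised peroxiredoxins, was at -4.97 and -5.48 in control cells at 0 h, where 1 array was well above background, and at -3.40 and -3.59 in the line labelled knockdown. At 24 h it was at 1.27 and 1.21 against 0.70 and 0.77, and the difference was -2.23 ± 0.24 (adjusted p = 0.0082). The matrix metalloproteinase gene Mmp10 (-1.32 ± 0.10), the scavenger receptor Cd36 (-1.25 ± 0.26), the gap junction gene Gja1 (-1.24 ± 0.16) and Gas7 (-1.18 ± 0.11) also started higher in the line labelled knockdown. None of these 4 was called with the authors' values. Of 19 genes of the NRF2, heat shock and oxidative stress list, 2 were called lower, Srxn1 and Slc7a11, with a median of -0.46.

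**Figure D4:**
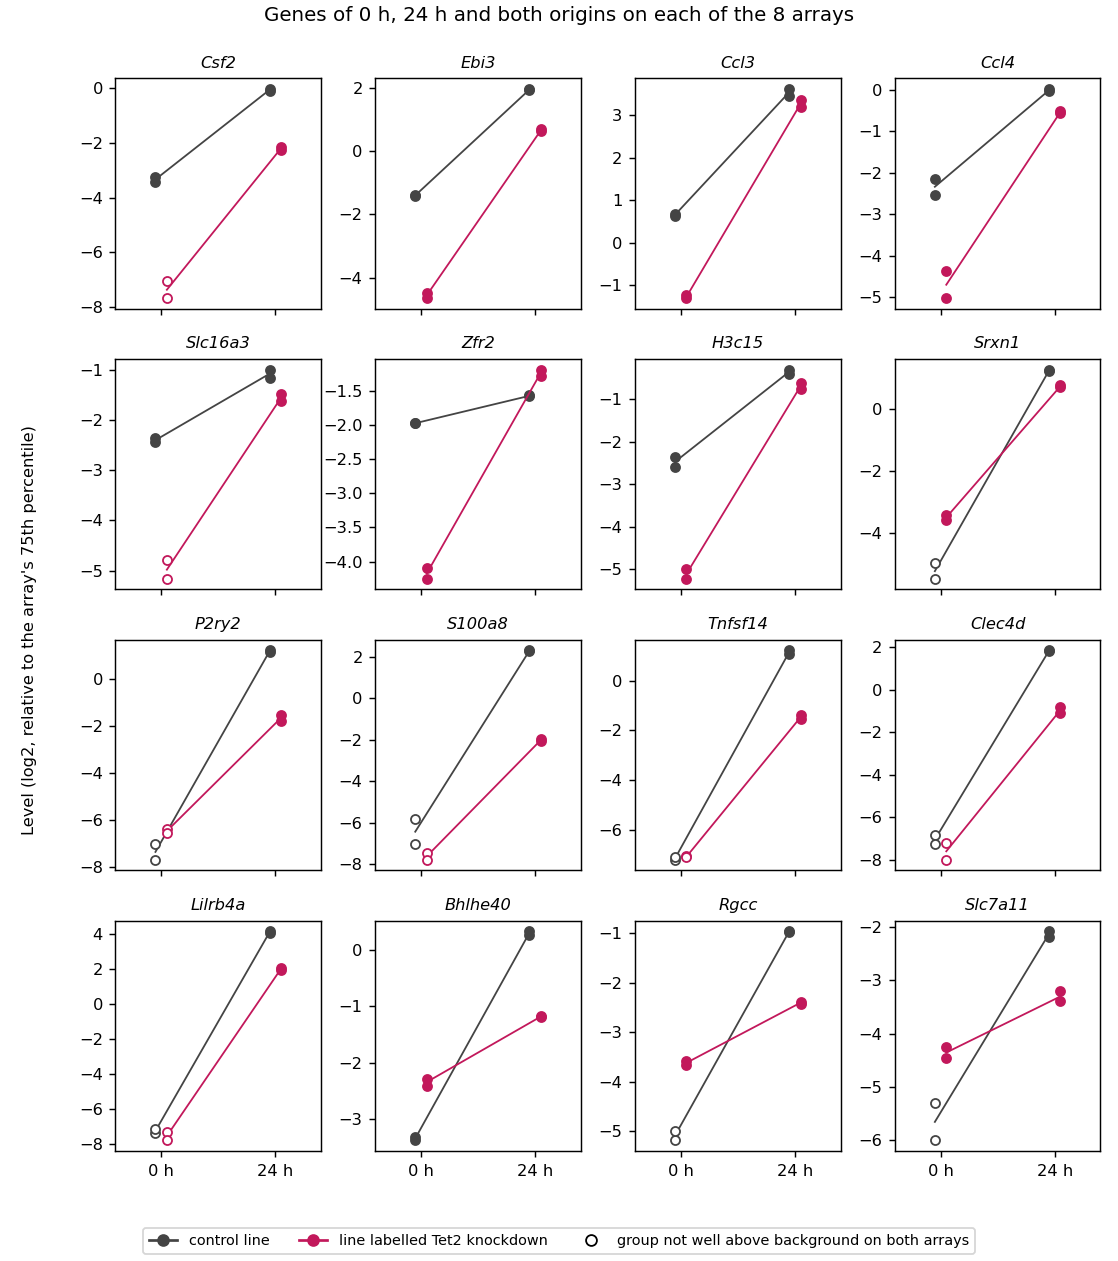
Levels of 16 genes with differences from 0 h, from 24 h or from both (y axes, log2 relative to the array's 75th percentile, each panel with its own scale), 1 point per array with lines through the means of the 2 arrays. The top panels from Csf2 to H3c15 show the line labelled knockdown starting lower, and the panels from P2ry2 to Lilrb4a show it ending lower after a start below the background limit (open points).

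A second motif, that of AP-1, a factor of activated and stressed cells, was counted in the promoters of the genes with a lower change. The AP-1 letters TGANTCA, which read the same on both strands, were present in 19 of 83 lower genes with a promoter in the table (22.9%), in 17 of 253 higher genes (6.72%) and in 621 of 9743 tested genes (6.37%). They were also present in 7 of 22 antiviral effector genes (31.8%), a larger share than in the lower genes. Only 83 of the 236 lower genes could be matched, and the difference in share was not tested. AP-1 matches overlapped a STAT site in 3 genes and a C/EBP motif in 2, none of them called. The C/EBP letters TTGCNNAA were present in 11 of the 83 lower genes (13.3%), 25 of the 253 higher genes (9.88%) and 10.3% of all, and the PU.1 letters GAGGAAG in 20.5%, 22.9% and 16.2%. The NF-kappaB letters (GGGA, any base, TTTCC) were present in 0 of 83, 5 of 253 and 51 of 9743, and the STAT site in 6.02%, 9.49% and 8.38%. The 4 windows with the AP-1 match in capitals are examples chosen after the values were seen. Matches nearer the start, such as those of Sftpb (18 bases before it) and Gja1 (19 bases), are not shown.
Mmp13: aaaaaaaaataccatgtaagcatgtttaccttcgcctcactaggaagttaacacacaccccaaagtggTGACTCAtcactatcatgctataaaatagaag
Mmp10: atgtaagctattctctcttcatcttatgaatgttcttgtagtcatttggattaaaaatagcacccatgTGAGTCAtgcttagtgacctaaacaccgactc
Srxn1: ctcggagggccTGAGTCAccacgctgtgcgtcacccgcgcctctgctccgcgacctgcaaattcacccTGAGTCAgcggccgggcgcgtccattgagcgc
Tnfsf14: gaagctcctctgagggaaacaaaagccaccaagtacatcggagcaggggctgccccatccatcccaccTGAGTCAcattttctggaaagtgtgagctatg
They are chr9:7272411-7272510 (plus strand) for Mmp13, chr9:7502211-7502310 (plus) for Mmp10, chr2:152105411-152105510 (plus) for Srxn1 and chr17:57194310-57194409 (minus) for Tnfsf14, all in GRCm38.p6. The match began 35 bases before the start in Mmp13, 63 in Mmp10 and 160 in Tnfsf14, and Srxn1 held 2 matches. Mmp13, a collagenase, rose in both lines and had a difference of -1.83 ± 0.20 from both times.

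Genes of growth had values mostly below 0 and within the calling limits. Of 31 DNA replication genes, 1 was called (Ccne1, cyclin E1, -1.45 ± 0.09) and 2 had a value above 0, with a median of -0.28. Of 29 mitosis genes 0 were called, 5 had a value above 0 and the median was -0.36, and 11 had an unadjusted p under 0.05 with a value below 0. Over all genes, 2968 of 16153 had such a p with a value above 0 (18.4%) and 2417 with a value below 0 (14.96%). Of 27 genes of MYC and ribosome biogenesis 1 was called (Utp20, -1.11 ± 0.16), with a median of -0.30. By the induction test, 30 of 31 replication genes fell in control cells and 31 in the line labelled knockdown, and 28 of 29 mitosis genes fell in each line. The medians of these 3 lists stayed below 0 under every scaling.

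For the B cell genes, the background is the 3.82% of all genes that were called. Of 26 genes of the pre-B receptor and recombination, 0 were called, 10 had an unadjusted p under 0.05 with a value above 0 and 5 below, and the median was 0.19. Of 23 B lineage transcription factors 1 was called, Id3, an inhibitor of E proteins, which fell by 3.74 in control cells and by 2.45 in the line labelled knockdown (1.29 ± 0.11). These counts stand beside the higher pre-B marker sum at 24 h given above, whose part in them was not tested. Of 26 genes of DNA methylation and demethylation, 0 were called and 5 had an unadjusted p under 0.05 in each direction. Tet1 (0.76 ± 0.51), Tet3 (-0.03 ± 0.26), Dnmt1 (-0.06 ± 0.13), Dnmt3a (0.13 ± 0.08) and Dnmt3b (-0.05 ± 0.12) were not called, and of these Tet3, Dnmt1, Dnmt3a and Dnmt3b changed sign in some settings. Cebpb, a relative of the induced factor, rose in both lines, with a difference of 0.09 ± 0.09. The endogenous Cebpa probe was below background on all arrays, and the inducible protein was not measured.

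**Figure D5:**
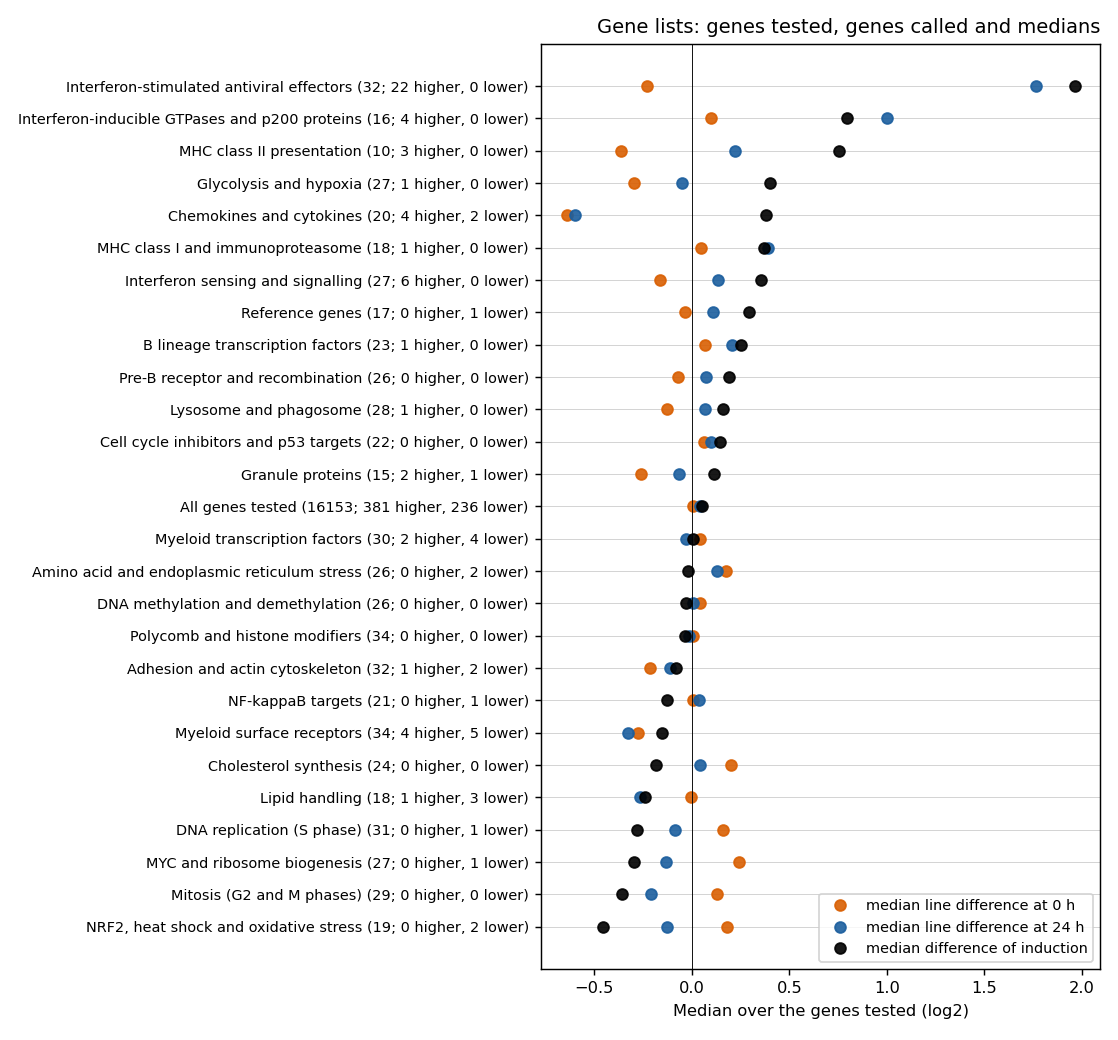
Median line difference at 0 h, median line difference at 24 h and median difference of induction (x axis, log2) for each gene list with at least 10 genes tested and for all genes, with the numbers tested and called. The antiviral effectors stand at 1.96, with their 24 h median at 1.77 and their 0 h median at -0.23, and chemokines and cytokines have both line medians near -0.6.

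Lipid handling had 1 higher gene, the phospholipid transfer protein Pltp (2.08 ± 0.22), and 3 lower ones of 18, the triglyceride enzyme Dgat2 (-1.72 ± 0.19), the cholesterol exporter Abca1 (-1.12 ± 0.09) and Cd36. With normexp or the authors' values only Dgat2 of these 4 was called, and Pltp was at 0.65. Cholesterol synthesis had 0 calls of 24 and a median of -0.18, with 2 genes above and 8 below 0 at an unadjusted p under 0.05. Lysosome and phagosome had 1 of 28, the progranulin gene Grn (1.20 ± 0.07), close to the 3.82% called over all genes. At an unadjusted p under 0.05, 11 of the 28 had a value above 0 (39.3%) and 2 below (7.14%). Cell cycle inhibitors with p53 targets had 0 of 22, with 9 genes above and 2 below 0 at that unadjusted p. Polycomb and histone modifiers had 0 of 34, with 6 above and 7 below, close to the shares over all genes. NF-kappaB targets had 1 lower of 21 (the costimulator Cd80, -1.74 ± 0.37) and the amino acid and endoplasmic reticulum stress list 2 lower of 26. Among 17 reference genes, 1 was called, the transferrin receptor Tfrc (-1.36 ± 0.09), and the median was 0.29. Actb (0.41 ± 0.32) and Gapdh (0.44 ± 0.22) were above 0 here and turned to -0.15 and -0.06 with the normexp correction, while Hprt (-0.07 ± 0.08) and Tbp (0.19 ± 0.11) were near 0.

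Markers of other cell types differed in how far they were measured. Of 6 T cell markers, Cd3e, Cd4 and Lck were measured on all 8 arrays, Cd3d on 1 and Cd3g and Cd8a on 0. Their summed level (percent of the 75th percentile) was 191 to 264 over the 0 h arrays and 333 to 541 over the 24 h arrays, and the lines overlapped at both times. Of 5 dendritic markers, Siglech was measured on all 8 arrays, Flt3 on 7, Zbtb46 on 6, Itgax on 4 and Xcr1 on 0. The dendritic sum was 3171 to 3805 at 0 h and 2748 to 3003 at 24 h in control cells, and 3861 to 4212 and 2312 to 2673 in the other line, so it fell further there. Of 5 stromal markers 0 or 1 were measured in any group, of 4 erythroid markers 0 or 1, and of 4 NK markers 1 or 2, of which Prf1 was measured on all 8 arrays. Klrb1c, an NK receptor, was measured only in the line labelled knockdown at 24 h, where it was at least 2.91-fold higher than in control cells (1.95 ± 0.35). Its call was lost in 11 alternatives, among them median scaling, normexp, the authors' values and limma's trend option, with a lowest value of 0.55. Of 7 genes of the dendritic list, 3 had a higher change, the growth factor receptor Flt3 (2.34 ± 0.36), the lectin Clec10a (1.80 ± 0.36, named after its values were seen) and the interferon-induced tether Bst2 (1.28 ± 0.17), while Siglech (-0.42 ± 0.18) and Itgax (-0.88 ± 0.33) had values below 0 and were not called. Flt3 lost its call in 7 alternatives, 6 of them with 1 array left out. The part of such cells in the results was not tested.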

How the data were processed

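Expression was measured on 8 one-colour Agilent mouse arrays (design 026655, mm9 annotation, per the file headers). The deposited scanner files give each spot's intensity, which Feature Extraction 10.7.3.1 had background-subtracted, per the file headers; the authors' deposited value table holds log2 values, matched here by a normexp correction (offset 50) with quantile normalization, and the submitters' processing notes name limma. Here the log2 processed intensity was set relative to the 75th percentile of an array's non-control spots. Outlier spots (155 to 219 per array) were left out and spots of a probe averaged. A probe stayed (20306 did) where some group had both arrays well above background, and each gene was represented by its brightest such probe. Names came from the reference table for 11620 genes by accession, 580 by symbol and 89 by synonym, and 3864 kept the file's name. Of the 617 called genes, 87 had another kept probe, which was called the same way in 44 and the opposite way in 0. In 5 genes another probe had a value of the opposite sign.

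One model with 4 group means was fitted with limma 3.58.1 (R 4.3.3, 4 residual and 1.51 prior degrees of freedom) and adjusted by Benjamini-Hochberg over 16153 genes, with 2-sided tests. The ± values are standard errors of that fit, with n = 2 arrays per group, and their median was 0.14 for the difference of induction. The number of arrays limits the precision. "At least N-fold" bounds set each array of a group below background to the lowest level that was well above background on that array, or to the probe's own value where higher. Code was tested on simulated data.

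Replicate numbers coincide with slide and scan, per the file headers. The differences between replicate 1 and 2 correlated between groups with r from 0.30 to 0.41 across genes, so the numbers pair the arrays, and slide cannot be told apart from replicate. Duplicates correlated with r from 0.992 to 0.994.

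Genes were named by rule: the largest differences in each direction and origin, the largest called members of each list, genes moving in opposite directions, and fixed control genes. Members, lists, motifs and rules were chosen with earlier results of these data known. Some results are not reported here. Alternatives were other scalings, background corrections, filters, a replicate block and leaving out each array. Normexp with quantile normalization and the authors' values correlated with r = 1 on each array, so they are not independent checks. Tallies of alternatives in which a call was lost count them separately.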

Additional observations from a re-analysis of the deposited data

Results flagged for a closer look

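Under the same induction, the lines differed by the test of the difference itself in 381 genes with a higher and 236 with a lower change, so both counts belong here. Among called genes that the naming rule admits (an established symbol, and above background where the difference arose), the 10 largest higher values were 5.78 for Ifit3b, 5.47 for Ifit1, 5.28 for Rtp4, 5.05 for Ifit3, 4.67 for Ifit1bl1, 4.64 for Mx1, 3.93 for Mx2, 3.89 for Acnat1, 3.54 for Syce3 and 3.50 for Tgtp2 (log2). Of these, 8 are interferon-induced, and Acnat1 and Syce3 are not known as such and were measured only in control cells at 0 h. The 10 largest lower values among such called genes were -5.21 for Orm2, -3.72 for P2ry2, -3.36 for Sftpb, -3.11 for S100a8, -2.91 for Rgcc, -2.87 for Wfdc21, -2.80 for Ltb4r1, -2.69 for Tnfsf14, -2.49 for Bhlhe40 and -2.47 for Slc7a11. Spp1, which encodes osteopontin, had a lower value than P2ry2 but was not called (-4.08 ± 1.31, adjusted p = 0.093). Sftpb, a surfactant protein of the lung, was measured only in the line labelled knockdown at 0 h.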

How the results depend on the processing

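No gene called in the reported setting was called in the opposite direction under any alternative. Higher and lower genes numbered 102 and 110 with scaling to the array median, with which the all-gene median became -0.09 in place of 0.05 and the share of higher genes 48.1% in place of 61.8%. They numbered 178 and 110 with normexp and quantile normalization and with the authors' values, and 95 and 26 with no filter on dim probes. Genes from 0 h, 24 h and both numbered 46, 68 and 98 with median scaling, 45, 124 and 119 with normexp or the authors' values, and 29, 36 and 56 with no filter. Limited to genes measured on all 8 arrays in a fit of their own, an alternative added after the data were seen, there were 109 lower genes and 87, 90 and 195 genes by origin. Judged by the calls at each time, 16 genes differed at both. Of these, 6 higher and 5 lower genes had line differences of opposite direction. In the rest the line difference had the same direction at both times. Leaving out 1 array gave 258 to 382 higher and 135 to 272 lower genes, with 84 to 181 from 0 h, 106 to 160 from 24 h and 199 to 305 from both. The cause of these shifts was not tested.

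With the replicate block, which is also the slide, there were 417 higher and 258 lower genes, 615 of the 617 calls were kept, no count moved by over 1.5 times, and no gene named by the rule changed its call. With 1 array left out, the lone array is assumed to vary like the other groups. Csf2 turned to -0.65 with normexp and the authors' values, as did Actb to -0.15, Gapdh to -0.057 and Dnmt1 to 0.05. With median scaling Tet2 turned to -0.030, Dnmt3a to -0.016 and Cebpb to -0.057. Leaving out 1 array gave values from -0.28 to 0.21 for Tet3, from -0.15 to 0.029 for Dnmt1 and from -0.12 to 0.025 for Dnmt3b. Depth here is signal over background: 182 of the 617 genes had a group below it.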

Other observations

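Called genes lay side by side in several places (probe positions, mm9). Phf11a, Phf11b and Phf11d, members of an interferon-induced family, had higher changes of 1.85, 1.57 and 1.70, all from 24 h, within chr14:59895771-59967640. On chromosome 11, Ccl3, Ccl4 and Wfdc17 had higher changes from 0 h, whereas Ccl6 (-1.02) and Wfdc21 (-2.87), which flank them, had lower changes from 24 h. On chromosome 17, Lst1 (1.79), Ltb (1.23) and Lta (1.21), neighbours in the MHC class III region, had higher changes from 0 h. How often called genes would lie together by their order on chromosomes was not tested, and all these genes are named after their values were seen.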
